A study of Homo sapiens with 8 samples.

Results

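The guanylate-binding proteins GBP1, GBP2, GBP3, GBP4 and GBP5 are neighbouring genes of one family, and their messenger RNA was followed in human hepatic stellate cells grown on soft or stiff matrices. The 5 genes were chosen by symbol as the rows GBP1 to GBP5 of the count and FPKM tables, out of 25369 genes listed and 14570 genes tested. All 5 were less abundant on the stiff matrix than on the soft matrix at day 2 and at day 4, with no overlap between libraries, as 6.14% of all genes tested were, and GBP4 and GBP5 showed the widest gaps. GBP5 was kept among the genes tested only through its soft libraries, so that its lower stiff level is a description. None of these matrix differences passed the main test after adjustment for multiple testing. With time in culture GBP1 and GBP2 rose on both matrices and GBP4 rose on the soft matrix.

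Guanylate-binding proteins are large GTPases of the dynamin superfamily that bind and hydrolyse guanine nucleotides and assemble into polymers on membranes. They are known as a defence system inside the cell: interferon gamma switches their genes on, in part through the transcription factor IRF1, and the proteins then coat bacteria and pathogen vacuoles and help caspases and inflammasomes to respond. Stellate cells are the collagen-producing cells of the liver and are known to respond to interferon gamma, which restrains their activation.

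LX-2 is an immortalized human hepatic stellate cell line. Wild-type cells kept on plastic were moved to polyacrylamide gels coated with fibronectin, either soft (2 kPa, close to healthy liver) or stiff (40 kPa, close to cirrhotic liver), and RNA was sequenced after 2 or 4 days. Each of the 4 conditions had 2 libraries, called replicate 1 and replicate 2, and the study's question for them was how matrix stiffness alters gene expression. The labels name no interferon, cytokine or other agent for any group, and all libraries come from 1 cell line, so that the replicates are repeat cultures rather than donors and the p-values measure the spread between these libraries only.

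Library totals ran from 19955975 to 27263935 counts, with a median of 22598474. The 2 stiff day 4 libraries stood farther apart than any other pair: the chi-square of their counts over genes was 112 times its degrees of freedom, against 3.45 to 19.2 in the other conditions. Of 10 stellate cell markers, 9 passed the low-count filter and their summed level was 3364 to 4299 CPM at day 2 and 5516 to 8145 CPM at day 4, while 4 hepatocyte markers summed to at most 0.518 CPM and 4 T or NK cell markers to at most 0.403 CPM, with CD3E and IFNG at 0 counts in all 8 libraries. Most of the stellate sum was VIM, with means of 2016 (soft) and 2663 (stiff) CPM at day 2 and 4370 and 5180 at day 4. The COL1A1 mean fell from 952 to 686 CPM on soft and from 874 to 588 on stiff matrix. Over time 7 of the 9 tested stellate markers had positive and 2 had negative values on each matrix. The 4 endothelial markers summed to at most 1.30 CPM and the 2 cholangiocyte markers to at most 0.857 CPM. CPM here are counts normalized to the library total after scaling by the trimmed mean of M-values. The markers of the labelled cell type passed the filter, apart from desmin, but some were low. The condition means ran from 2.29 to 3.90 CPM for COL1A2 and from 8.05 to 18.3 CPM for ACTA2. In RNA from whole cultures, fewer expressing cells and less RNA per cell cannot be told apart.

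The 5 genes lie on the minus strand of chromosome 1 within 266 kb, at chr1:89472362-89738543 of the GRCh37 annotation. GBP3 comes first at chr1:89472362-89488577, then GBP1 at chr1:89517565-89531043, GBP2 at chr1:89571815-89616139, GBP4 at chr1:89646827-89664625 and GBP5 at chr1:89721872-89738543. GBP2 overlaps GBP7 on the same strand, and GBP4 and GBP5 each overlap a long non-coding RNA on the opposite strand. The library kit named in the labels does not mark strand, so reads from such partners cannot be told apart from those of the named gene. Of the other family rows, GBP6 and GBP7 had 0 counts in all 8 libraries, which allows at most 0.150 CPM in the shallowest library, and the pseudogene GBP1P1 had 0 to 4 counts.

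Sequence near the start sites is shown because the interferon-stimulated response element, which IRF factors bind, is known from interferon-inducible promoters. RefSeq start-site windows (GRCh38.p14, 250 bases before to 50 after the start) were matched for GBP1, GBP3 and GBP4. The core of the element, GAAANNGAAA on either strand, was found in 3 of 3 matched windows, and 3.57% of 35116 windows of the same length held it. The count depends on the bases after the start: within the 250 bases before it, only GBP1 of the 3 held the core, as 3.02% of all windows did. In the lines below, each 30 bases long and written 5′ to 3′ along the gene, capitals mark the core as read on that strand.
GBP1: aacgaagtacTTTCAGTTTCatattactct
GBP3: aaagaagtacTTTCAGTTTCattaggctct
GBP4: gtgcatgtccTTTCAATTTCggttctcaca

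The GBP1 core lay 127 to 118 bases before the start, within chr1:89065316-89065345 on the minus strand. The GBP3 core lay 3 to 12 bases after its start (within chr1:89022845-89022874, minus strand), and the GBP4 core ran across its start (within chr1:89198927-89198956, minus strand). GBP1 and GBP3 shared an unbroken run of 19 bases across the core, gaagtactttcagtttcat, whereas no other pair of family windows shared more than 13. The core of the gamma-activated sequence, TTCNNNGAA, which reads the same on both strands, was found in 1 of the 3 windows, that of GBP3, 15 to 7 bases before the start, and 7.66% of all windows held it. The windows of GBP6 and GBP7, the family genes at 0 counts, held neither core. A match of letters is a description and not a bound site, and GBP2 and GBP5 were not matched.
GBP1 upstream 250 bases: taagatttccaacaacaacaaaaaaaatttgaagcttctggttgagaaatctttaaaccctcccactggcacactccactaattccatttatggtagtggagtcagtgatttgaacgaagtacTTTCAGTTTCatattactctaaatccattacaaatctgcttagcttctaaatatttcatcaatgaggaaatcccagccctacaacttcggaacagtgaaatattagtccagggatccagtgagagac

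Levels were compared between genes in FPKM, the authors' fragment counts normalized for gene length and library depth. GBP3 was the most abundant member in every condition, followed by GBP1, GBP2, GBP4 and GBP5, and this order held in 8 of 8 libraries. On the soft matrix at day 2, GBP3 stood at 17.5 ± 0.768 FPKM, GBP1 at 7.18 ± 0.384, GBP2 at 1.70 ± 0.0244, GBP4 at 0.628 ± 0.089 and GBP5 at 0.140 ± 0.00252 (SD, n = 2). Neighbours in this order did not overlap within any condition. Over the 8 libraries the mean FPKM of GBP3 exceeded that of 70.4% of the genes tested and that of GBP5 only 3.45%, so that the family ran from moderately expressed to barely detected.

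The shares of GBP1, GBP2 and GBP3 in the family separated the days. The shares of GBP2, GBP4 and GBP5 separated the matrices within each day, that of GBP2 in opposite directions at day 2 and day 4. The summed FPKM of the 5 genes was 27.1 ± 1.27 on soft and 22.3 ± 1.62 on stiff matrix at day 2, and 42.6 ± 1.82 and 29.8 ± 1.21 at day 4 (SD, n = 2). GBP3 made up 63.1% to 66.1% of that sum in the 4 day 2 libraries and 46.0% to 51.6% in the 4 day 4 libraries, with no overlap. The GBP1 share ran from 26.3% to 31.4% at day 2 and from 33.6% to 38.0% at day 4. Within a day the soft and stiff ranges of the GBP3 share overlapped. The GBP4 share was 2.16% and 2.47% on soft against 0.677% and 1.11% on stiff matrix at day 2, and 4.80% and 6.31% against 2.30% and 0.991% at day 4, so that its stiff libraries overlapped between days. The GBP5 share was also lower on stiff matrix, at 0.0489% and 0.353% against 0.529% and 0.508% at day 2 and 0.353% and 0.145% against 0.775% and 0.893% at day 4. The GBP2 share was lower on stiff matrix at day 2 (4.79% and 5.49% against 6.42% and 6.13%) and higher at day 4 (12.01% and 12.6% against 9.25% and 9.97%).

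**Figure D1:**
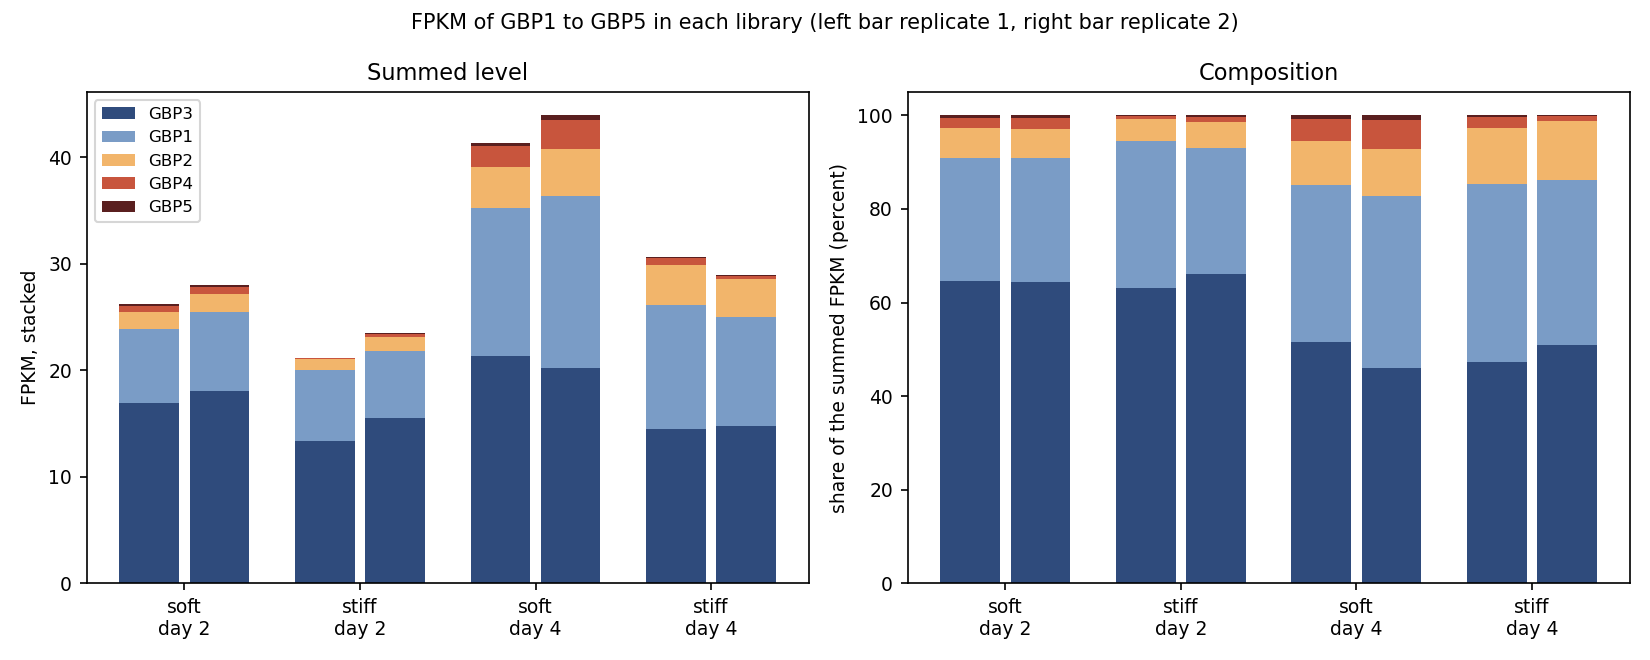
FPKM of GBP1 to GBP5 stacked per library (left panel) and as a percentage of their sum (right panel), with 2 bars per condition for replicates 1 and 2. GBP3 takes 63.1% to 66.1% of the sum at day 2 and 46.0% to 51.6% at day 4, and the summed level is highest in the soft day 4 libraries (41.4 and 43.9 FPKM).

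The first comparison asked how each gene differed between stiff and soft matrix on the same day. Fold changes are log2 of stiff over soft from edgeR's quasi-likelihood test over 14570 genes with Benjamini-Hochberg adjustment, with a call at an adjusted p under 0.05.

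GBP1, a farnesylated member known to bind bacterial lipopolysaccharide and to start the coat on bacteria, differed little at day 2. It stood at 21.1 and 22.7 CPM in the soft day 2 libraries and at 20.3 and 19.3 in the stiff ones. At day 4 it stood at 42.6 and 50.4 CPM on soft and at 35.8 and 31.6 on stiff matrix. The stiff libraries lay below the soft ones at both days, narrowly at day 2. The log2 fold change was -0.15 (SE 0.147, edgeR adjusted p = 0.9999) at day 2 and -0.47 (SE 0.146, edgeR adjusted p = 0.46) at day 4.

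GBP2, a geranylgeranylated member that joins the coat laid down by GBP1, showed the reverse order of the days. The soft day 2 libraries held 6.97 and 7.09 CPM and the stiff ones 4.20 and 5.32. The soft day 4 libraries held 15.9 and 18.5 CPM and the stiff ones 15.3 and 15.3. The gap was clear at day 2 and narrow at day 4, and no stiff library reached a soft one of the same day. The log2 fold change was -0.56 (SE 0.178) at day 2 and -0.17 (SE 0.168) at day 4, with edgeR adjusted p of 0.9999 and 0.876.

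GBP5, also prenylated and known to restrain the protease furin together with GBP2, was close to the detection limit. Its counts were 16 and 16 in the soft day 2 libraries, 1 and 8 in the stiff day 2 libraries, 28 and 36 in the soft day 4 libraries and 9 and 3 in the stiff day 4 libraries. The gene passed the low-count filter only through its soft libraries, so that its lower stiff level is a description. The ratio of soft to stiff from summed counts was 3.02 at day 2 (95% exact interval 1.41 to 7.19, counting error only) and 4.61 at day 4 (2.47 to 9.39). The log2 fold change was -1.57 (SE 0.712, edgeR adjusted p = 0.9999) and -2.20 (SE 0.631, edgeR adjusted p = 0.393).

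GBP3, which has no prenylation signal and joins the coat through other members, stood at 51.6 and 54.7 CPM in the soft day 2 libraries and at 40.7 and 47.1 in the stiff ones. At day 4 it stood at 65.2 and 62.8 CPM on soft and at 44.4 and 45.4 on stiff matrix. The libraries did not overlap at either day, and the pairs of day 4 libraries were tight. The log2 fold change was -0.28 (SE 0.132) at day 2 and -0.51 (SE 0.133) at day 4, with edgeR adjusted p of 0.9999 and 0.316.

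GBP4, a member without a prenylation signal that is recruited with GBP1 and helps to recruit caspase-4, showed the largest matrix difference of the 5. Its counts were 99 and 118 in the soft day 2 libraries against 21 and 38 in the stiff ones, or 3.49 and 4.25 against 0.882 and 1.59 CPM. At day 4 they were 263 and 386 on soft against 89 and 31 on stiff matrix, or 12.3 and 17.4 against 4.37 and 1.79 CPM. The stiff libraries were far below the soft ones at both days, and the pair of stiff day 4 libraries differed from each other in proportion by more than any other pair for this gene. The level was 3.12-fold lower on stiff matrix at day 2 (log2 fold change -1.64, SE 0.452, edgeR adjusted p = 0.9999) and 4.76-fold lower at day 4 (log2 fold change -2.25, SE 0.411, edgeR adjusted p = 0.11). DESeq2 called the day 4 difference (adjusted p = 1.01e-04) and not the day 2 difference (adjusted p = 0.137). Without replicate 1 of the stiff day 4 libraries the log2 fold change was -3.04 (edgeR adjusted p = 7.28e-06), and without replicate 2 it was -1.75 (edgeR adjusted p = 6.65e-04).

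**Figure D2:**
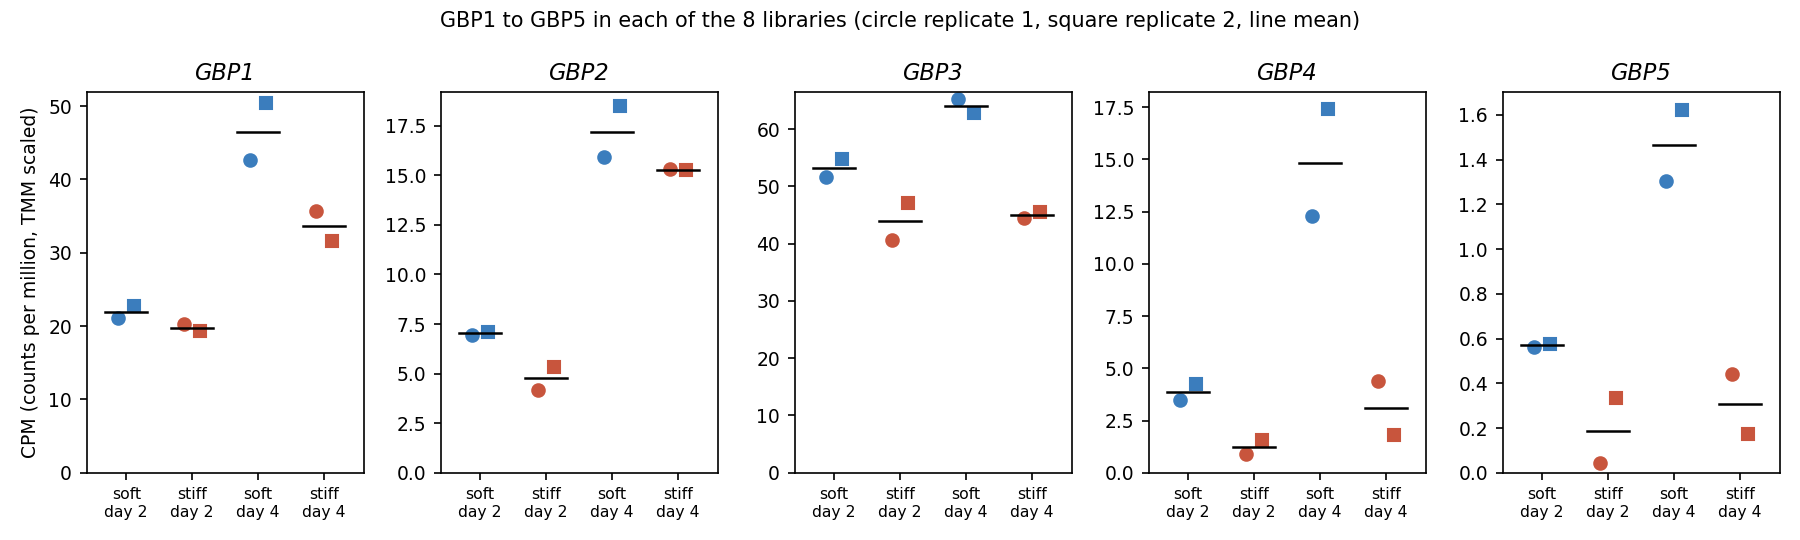
Level of each gene in CPM (vertical axes, linear and starting at 0, with a separate scale per gene) in each of the 8 libraries, with soft in blue, stiff in red, circles for replicate 1, squares for replicate 2 and a line at the mean. In every panel the stiff points lie below the soft points of the same day, for GBP4 at 0.882 and 1.59 against 3.49 and 4.25 CPM at day 2.

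Counted over the family, 5 of 5 genes were lower on stiff matrix with libraries that did not overlap at day 2, where 22.4% of all genes tested were, and 5 of 5 at day 4, where 14% were. All 5 did so at both days, against 6.14% of all genes. The edgeR test called 0 of 5 at day 2, where 0% of all genes were called lower, and 0 of 5 at day 4, where 0.213% were. At an unadjusted p under 0.05 it took 2 of 5 lower at day 2 (1.78% of all genes) and 4 of 5 at day 4 (4.32%), the latter including GBP5, whose place in the test rests on its soft libraries, and 3 of 4 without it, while DESeq2 called 0 of 5 lower at day 2 (0.151% of its genes) and 1 of 5 at day 4 (0.736%). All 5 values were below 0 at both days, as 48.3% and 46.6% of all genes were. The median log2 fold change of the 5 was -0.56 at day 2 and -0.51 at day 4, beside 0.01 and 0.02 over all genes tested.

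Averaging both days, which uses 4 libraries per matrix, brought GBP4 closest to the threshold at a log2 fold change of -1.95 (95% interval -2.65 to -1.24, edgeR adjusted p = 0.0508). GBP5 had -1.88 (-2.98 to -0.78), GBP3 -0.39 (-0.61 to -0.18), GBP2 -0.37 (-0.65 to -0.08) and GBP1 -0.31 (-0.55 to -0.07), so that all 5 intervals, that of GBP5 with the same reservation, lay below 0 before adjustment, as did 4.75% of all genes at an unadjusted p under 0.05, and 45.3% had a value below 0. After adjustment edgeR called 0 of 5, with 0.35% of all genes called lower, whereas DESeq2 called GBP4 (adjusted p = 5.55e-07) and GBP3 (adjusted p = 0.0328), with 0.994% of its genes called lower. More members were called by edgeR when either stiff day 4 library was left out. The share of all genes called in those fits is not given here, so this describes stability only.

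**Figure D3:**
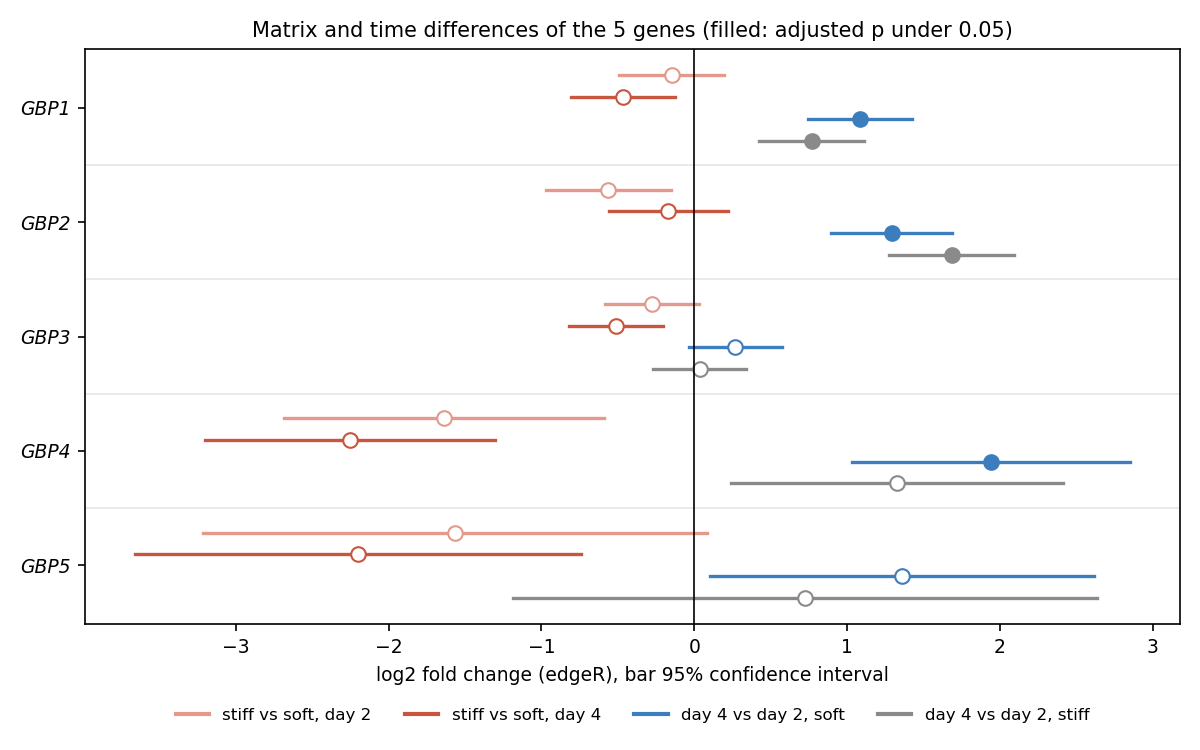
Log2 fold changes of the 5 genes from edgeR (horizontal axis), with 95% confidence intervals not adjusted for multiple testing, for the matrix comparisons at each day and the time comparisons on each matrix. Filled points have an adjusted p under 0.05. The matrix differences all lie below 0 with none filled, and GBP1 and GBP2 are filled in both time comparisons.

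The size of the matrix difference was not shown to differ between the days. The day 4 log2 fold change minus that of day 2 was 0.39 for GBP2 (95% interval -0.17 to 0.96) and -0.61 for GBP4 (-2.03 to 0.81), with GBP1, GBP3 and GBP5 between -0.63 and -0.23. The edgeR test called 0 of 5, with 0 of 5 at an unadjusted p under 0.05 and 0 of 5 by DESeq2, and the share of all genes called was 0%. Without replicate 1 of the stiff day 4 libraries GBP4 alone was called, at -1.40 (edgeR adjusted p = 0.0328).

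The second comparison followed the same genes from day 2 to day 4 on one matrix. On the soft matrix 3 of 5 rose by edgeR's quasi-likelihood test, where 14.1% of all genes tested were called higher. GBP4 rose from 3.49 and 4.25 to 12.3 and 17.4 CPM (log2 fold change 1.94, SE 0.394, edgeR adjusted p = 0.0114). GBP2 rose from 6.97 and 7.09 to 15.9 and 18.5 CPM (1.29, SE 0.172, edgeR adjusted p = 0.00311). These were gains of 3.84-fold and 2.45-fold. GBP1 rose from 21.1 and 22.7 to 42.6 and 50.4 CPM (1.09, SE 0.147, edgeR adjusted p = 0.00322). GBP5 had a log2 fold change of 1.36 (edgeR adjusted p = 0.10) and GBP3 of 0.27 (edgeR adjusted p = 0.165). All 5 had day 4 libraries above day 2 libraries without overlap on the soft matrix, as 38.5% of all genes did. Without replicate 1 of the soft day 2 libraries none of the 3 calls held, at adjusted p of 0.0556 for GBP1, 0.0516 for GBP2 and 0.127 for GBP4.

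On the stiff matrix 2 of 5 rose, with 14% of all genes called higher. GBP2 rose from 4.20 and 5.32 to 15.3 and 15.3 CPM, which was 3.21-fold (log2 fold change 1.68, SE 0.178, edgeR adjusted p = 0.00178). GBP1 rose from 20.3 and 19.3 to 35.8 and 31.6 CPM (0.77, SE 0.148, edgeR adjusted p = 0.00976). Both gains were present in each day 4 library. GBP4 had a log2 fold change of 1.33 (edgeR adjusted p = 0.07), GBP5 of 0.72 (0.542) and GBP3 of 0.03 (0.866). On stiff matrix 3 of 5 did not overlap between days, as 31.6% of all genes did not in this direction, and GBP3 and GBP5 did overlap. GBP1, GBP2 and GBP4 were higher at day 4 without overlap on both matrices, as 27.5% of all genes were. With only the 4 stiff libraries in the fit edgeR called 0 of 5 (adjusted p = 0.0765 for GBP1 and 0.0513 for GBP2), and without either stiff day 2 library it called GBP2 alone.

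The ratios between members differed between days. GBP3 exceeded GBP1 by 2.01-fold to 2.45-fold in FPKM in the 4 day 2 libraries and by 1.25-fold to 1.53-fold in the 4 day 4 libraries. GBP3 exceeded GBP2 by 10.1-fold to 13.2-fold at day 2 and by 3.94-fold to 5.57-fold at day 4. Neither range overlapped between days. Of 3 tested leukocyte markers, 1 was called higher over time on each matrix, where 14.1% of all genes were on soft and 14% on stiff matrix. It was PTPRC, which encodes the leukocyte antigen CD45, from 12 to 27 counts at day 2 to 35 to 64 counts at day 4 (log2 fold change 2.06 on soft, edgeR adjusted p = 0.011, and 1.56 on stiff matrix, edgeR adjusted p = 0.0277). CD14 was not called, with mean levels from 6.25 to 4.73 CPM on soft and from 3.69 to 3.80 CPM on stiff matrix. The 6 leukocyte markers summed to 89.8 to 95.3 CPM on soft and 106 to 109 on stiff matrix at day 2, and to 106 to 109 and 117 to 127 CPM at day 4, nearly all of it CD68, with CD163 at 0 counts in all 8 libraries. Their part in the result was not tested.

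The family was then set beside the pathway that is known to control it. IRF1, the transcription factor that binds the response element in interferon gamma signalling, stood at 38.5 and 37.4 CPM on soft against 21.4 and 26.4 on stiff matrix at day 2, and at 39.5 and 37.5 against 17.2 and 18.4 at day 4. It fell at day 4 (log2 fold change -1.11, edgeR adjusted p = 0.0362), with -0.67 at day 2 (edgeR adjusted p = 0.833). Among 10 tested genes of interferon gamma reception and signalling it was the only one called at day 4, where 0.213% of all genes were called lower, and 9 of the 10 had negative values. IRF8, among the 10, had 4 to 13 counts on soft and 2 to 6 on stiff matrix over both days. It passed the low-count filter only through soft libraries, so that its value is a description. The IRF1 call did not hold on leaving out any 1 of the 6 libraries outside the stiff day 4 condition (edgeR adjusted p = 0.108 to 0.335), and the gene overlaps the antisense gene IRF1-AS1, whose reads cannot be told apart from its own.

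The interferon transcripts looked for were not detected at this depth. IFNG, the gene of interferon gamma, and IFNB1, that of interferon beta, had 0 counts in all 8 libraries, which allows at most 0.150 CPM in the shallowest one. CXCL9 had at most 1 count in any library, IDO1 at most 5 and CIITA at most 7, and these 3 targets of interferon gamma were not tested. The receptor genes were present, and IFNGR1 rose with time on the soft matrix (log2 fold change 0.44, edgeR adjusted p = 0.0463). SOCS1, a feedback inhibitor of the pathway, fell with time on soft (-1.48, edgeR adjusted p = 0.00722) and on stiff matrix (-1.03, edgeR adjusted p = 0.0287).

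Of 13 tested interferon gamma targets outside the family, 2 were called lower at day 4 and none higher, where 0.213% of all genes were called lower. All 13 had negative values, as 46.6% of all genes did, and the median log2 fold change was -0.57 beside 0.02 over all genes. CXCL11, one of the 13, had 5 to 41 counts on soft and 0 to 3 on stiff matrix over both days. It passed the low-count filter only through soft libraries, so that its negative value is a description. At day 4 PSMB8, PSMB10, SERPING1 and NLRC5 overlapped between matrices. CXCL10, a chemokine that attracts T cells, had 55 and 44 counts on soft and 1 and 1 on stiff matrix at day 4 (edgeR adjusted p = 0.0331), a ratio of 42.8 (95% exact interval 11.5 to 359, counting error only). It passed the low-count filter only through its soft libraries, so that its lower stiff level is a description, and it had no value in the fit that required at least 10 counts in every library, where 1 of 11 targets was called. APOL3, a member of the apolipoprotein L family that permeabilizes bacteria, stood at 10.1 and 11.9 CPM on soft and 2.21 and 1.84 on stiff matrix (log2 fold change -2.44, edgeR adjusted p = 0.0198). At day 2 edgeR called none of the 13, where 0% of all genes were called lower, 12 of 13 were negative beside 48.3% of all genes, and the median was -0.47. The day 4 count was not stable. It fell when any 1 of the 4 soft libraries was left out and rose when either stiff day 4 library was. The share of all genes called in those fits is not given here.

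The interferon-inducible GTPases MX1 and MX2, dynamin relatives that restrain viruses, had day 4 values of -1.73 and -1.61 (edgeR adjusted p = 0.0921 and 0.195), and IRGQ had 0.27. MX1 stood at 6.07 and 7.57 CPM on soft and 1.82 and 2.30 on stiff matrix at day 4. Of this list of 3 tested genes none was called between matrices at day 4, and all 3 rose with time on the soft matrix (log2 fold changes 0.84 to 1.21), where 14.1% of all genes were called higher. On the stiff matrix 1 of 3 rose, IRGQ (0.93, edgeR adjusted p = 0.0329), where 14% of all genes were called higher. Of 6 tested genes of type I interferon reception and its ISGF3 factor, none was called at day 4, where IRF9 had -1.03 (edgeR adjusted p = 0.0775). In the mean of both days 1 of the 6 was called lower, where 0.35% of all genes were. The lowest mean value of the 6 was that of IRF9, at -0.84.

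Genes that act with the proteins were described by their own lists. Of 9 tested inflammasome and pyroptosis genes, 1 fell in the mean of both days, where 0.35% of all genes were called lower, and 8 of 9 were negative beside 45.3% of all genes. The one called was IL1B, which encodes interleukin 1 beta (log2 fold change -0.76, edgeR adjusted p = 0.0474). CASP1 and AIM2, the protease and the DNA sensor of one inflammasome, had mean values of -1.53 and -1.73 (edgeR adjusted p = 0.0845 and 0.111). Their stiff libraries lay below their soft ones at both days, as those of 6.14% of all genes did. Without overlap 6 of the 9 were lower at day 2, where 22.4% of all genes were. At day 4 it was 4 of the 9, where 14% of all genes were. CASP4 was higher on stiff matrix at day 4 without overlap, with means of 52.8 against 45.5 CPM. AIM2 had 14 to 54 counts on soft and 4 to 10 on stiff matrix. It passed the low-count filter through its soft libraries, so that its lower stiff level is a description. The 6 genes of CaaX prenylation and processing encode products that attach the lipid of GBP1, GBP2 and GBP5 or process prenylated proteins. They had 0 calls between matrices in the mean of both days, where 0.35% of all genes were called lower, and a median of -0.01. The 3 atlastins, related GTPases of the endoplasmic reticulum, had 0 calls and a median of -0.04. Over time 2 of the 6 genes were called higher and 2 lower on each matrix. Of all genes, 14.1% were called higher and 13.3% lower on soft, and 14% and 13.7% on stiff matrix. PGGT1B, a subunit of the enzyme that geranylgeranylates proteins, rose by 1.12 on soft and 1.15 on stiff matrix (edgeR adjusted p = 0.00264 and 0.00242), and ZMPSTE24, a protease that trims prenylated proteins, by 0.75 and 0.59 (edgeR adjusted p = 0.02 and 0.0455). RCE1, the other CaaX protease, fell by 1.23 on soft and by 0.95 on stiff matrix (edgeR adjusted p = 0.0166 and 0.0404). FNTB, a subunit of the enzyme that farnesylates GBP1, had 44 to 66 counts in the 4 day 2 libraries and 1 to 6 in the 4 day 4 libraries (log2 fold changes -3.31 and -4.20, edgeR adjusted p = 0.00308 and 0.00243). It passed the low-count filter only through its day 2 libraries and overlaps the read-through gene CHURC1-FNTB on the same strand, so that its values are uncertain.

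**Figure D4:**
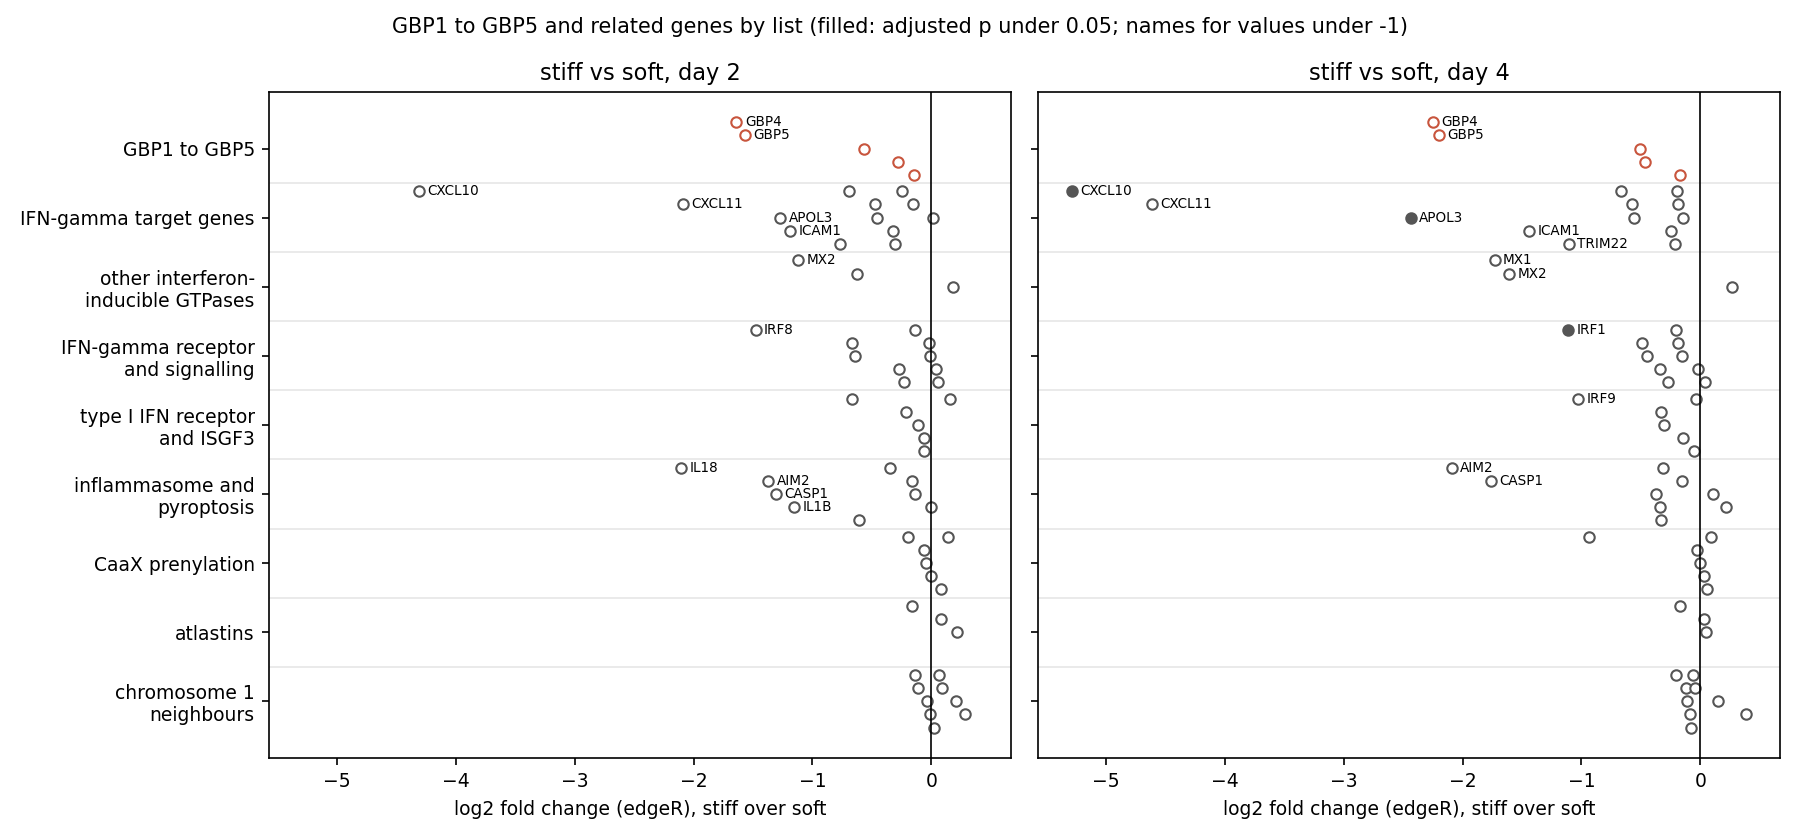
Log2 fold changes of stiff over soft matrix from edgeR (horizontal axes) at day 2 and day 4 for GBP1 to GBP5 in red and for the tested genes of 8 other lists, 1 point per gene and filled where the adjusted p is under 0.05. At day 4 all 5 GBP genes and 13 of 13 interferon gamma targets lie below 0, and the chromosome 1 neighbours lie on both sides of 0. Among the GBP genes and targets, GBP5, CXCL10 and CXCL11 were kept in the test only through soft libraries.

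Genes flanking the cluster on chromosome 1 lay on both sides of 0. Of 10 neighbours outside the family, 9 were tested. In the mean of both days edgeR called 0 of the 9 and 0 of the 5 GBP genes between matrices. Of all genes tested, 0.35% were called lower in that mean. The neighbours had 5 positive and 4 negative values, a range of -0.17 to 0.30 and a median of 0.00. The corresponding values of the 5 GBP genes, from -1.95 to -0.31, all lay below that range. The nearest tested genes beside GBP3 are RBMXL1, CCBL2, which encodes a transaminase, and GTF2B, which encodes a general transcription factor, and they had -0.08, -0.17 and 0.02.

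Across the 8 libraries, GBP4 and GBP5 had the most similar log2 CPM profiles (Pearson r = 0.959) and GBP2 and GBP3 the least (r = 0.516), with GBP1 and GBP2 at 0.939. Outside the family, the genes whose profile was closest to the mean profile of the 5 were RAB27B (r = 0.986), SLC18B1 (0.985), XAF1 (0.984), TNFSF15 (0.982) and SORL1 (0.980). SORL1 averaged 0.309 CPM, below the 0.443 CPM of the low-count filter, so that it was kept only through its higher libraries. TNFSF15 averaged 0.768 CPM. The mean profile followed GBP4 (r = 0.985) and GBP5 (0.938) most closely, ahead of GBP1 (0.875), GBP3 (0.872) and GBP2 (0.830). These correlations are descriptions over 8 libraries that share 4 conditions, 1 cell line and a run of depths. XAF1, an interferon-inducible inhibitor of the apoptosis regulator XIAP, rose with time on both matrices (log2 fold change 1.39 on soft, edgeR adjusted p = 0.00654, and 1.06 on stiff, edgeR adjusted p = 0.0262), and its day 4 matrix value was -1.36 (edgeR adjusted p = 0.11).

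Some sequence is shared within the family. Of all 50-base windows of the GBP1 transcript closest in length to the one the FPKM values imply, 14% occur exactly in another family transcript, most of them in GBP1P1, with 4.18% for GBP3, 1.66% for GBP2, 0.312% for GBP4 and 0 for GBP5. The GBP5 transcript used is 4699 bases long against 4051 implied by the FPKM values, and the part of shared sequence in the counts was not tested.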

How the data were processed

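The 8 libraries were grouped by the labels into 4 conditions of 2. Per the labels and methods, the authors trimmed paired-end reads with Trim Galore, aligned them to hg19 with STAR 2.7.1a and counted them per gene with HTSeq. The gene annotation and strand setting are not given in the sources used here. The authors deposited raw counts per gene, and the authors deposited FPKM per gene, which were used for levels between genes and for alternatives on log2(FPKM + 1) or log2(FPKM + 0.1).

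Counts were filtered with filterByExpr (minimum count 10), scaled with TMM and fitted with edgeR 4.0.16 (R 4.3.3) as quasi-likelihood models with the 4 conditions sharing 1 estimate of the spread. Benjamini-Hochberg adjustment ran over all 14570 genes tested. The study's tool, DESeq2 (1.42.0 here), and limma 3.58.1 on FPKM were alternatives, as were other scalings, filters, a replicate block, fits with only the conditions compared, and leaving out each library. Of the fits, only edgeR without the low-count filter, DESeq2 on all conditions and filtered limma on log2(FPKM + 1) were run on simulated data. The floor for a count of 0 is 3 counts per library. Exact intervals and floors cover counting error only, since reads carry no molecular identifiers.

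Replicate numbers are in the labels, but no source says that they mark shared batches. Correlations of same-numbered deviations were -0.04 at day 2, -0.49 at day 4, 0.08 on soft and 0.02 on stiff matrix, so that the numbers were not taken as pairs.

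The genes named are GBP1 to GBP5, the other family rows, genes of lists for interferon signalling, interferon targets, related GTPases, prenylation, inflammasomes, cell types and chromosome 1 neighbours, and the 5 genes closest in profile. These members and lists were chosen with earlier results of these data known, and 1 listed gene is not reported here. Start-site windows came from RefSeq (GRCh38.p14), gene positions and transcripts from GENCODE v44 lifted to GRCh37.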

Additional observations from a re-analysis of the deposited data

How the results depend on the processing

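The members of the family kept their lower level on stiff matrix under every alternative run at day 2, at day 4 and for the mean of both days, with 0 reversals. The number called was less stable. At day 2 the 0 of 5 became 2 with only the compared conditions in the edgeR fit and 1 with the same libraries in DESeq2, and ranged from 0 to 1 when 1 library was left out. At day 4 the 0 of 5 became 1 with DESeq2, 1 with DESeq2 on the compared conditions only, and 0 to 4 on leaving out 1 library. For the mean of both days the 0 of 5 became 2 with DESeq2 and 1 without the filter, and ranged from 0 to 5 on leaving out 1 library. The change of the stiffness effect ranged from 0 to 1 called. With time, the 3 of 5 on soft matrix ranged from 0 to 4 and the 2 of 5 on stiff matrix from 1 to 3 on leaving out 1 library, and the latter became 0 with only the stiff libraries in the edgeR fit and 1 in DESeq2. A lone library in a left-out fit is assumed to vary like the other conditions. The share of all genes called lower or higher in the left-out fits is not given here, so these counts describe stability only. The cause of these changes was not tested.

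The replicate block left the members called at 0 of 5 at day 2, 0 at day 4, 0 for the mean and 0 for the change of the stiffness effect, 3 on soft and 2 on stiff matrix. Over all genes it took the calls at day 4 from 36 to 0 and those of the mean from 62 to 5. With the day 4 numbers of the stiff libraries crossed, a pairing chosen after seeing the data, 1, 2 and 3 of 5 were called at day 2, at day 4 and for the mean. The share of all genes called with that pairing is not given here. DESeq2 with only the compared conditions was also chosen after seeing the data.

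Reversals concerned GBP3 and GBP5. Without scaling factors GBP3 on stiff matrix over time was -0.098, while the median of all genes moved from 0.03 to -0.10. Leaving out 1 library, the same comparison ranged from -0.066 to 0.14 for GBP3 and from -0.13 to 2.75 for GBP5, and the change of the stiffness effect for GBP5 from -1.47 to 1.40. GBP5 had no value with at least 10 counts in every library or in the filtered FPKM fits. Over all genes, calls at day 2 were 0 in edgeR, 28 in DESeq2 and 667 with only the compared conditions in edgeR, and at day 4 they were 36, 166 and 0. Calls over time were 3985 on soft and 4024 on stiff matrix, against 7261 and 0 with only the compared conditions. With 2 libraries per condition and counts as low as 1, the depth limits GBP5 most.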
